A study of Mus musculus with 6 samples.

Results

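The variable segments of the immunoglobulin light chains were taken as all genes of the deposited table whose identifier maps to a mouse symbol that begins with Igkv, for the kappa chain, or Iglv, for the lambda chain. The rule found 163 of the 56750 rows, 160 kappa segments on chromosome 6 and 3 lambda segments on chromosome 16. Of these, 103 are annotated as variable genes and 60 as pseudogenes. The rule used symbols alone and no measured value.

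RNA was sequenced from bone marrow cells of C57BL/6 mice in which dextran sulfate sodium (DSS) had induced colitis. This group is named DIC in the labels, and control mice of the same strain were its counterpart. DIC mice received 2.5% DSS, a chemical that injures the lining of the colon, for 5 days, and the labels give no treatment for the control mice beyond that word and no age or sex for either group. In both groups, cells flushed from the femur were sorted as LSK cells, which lack the markers of mature blood lineages, carry Sca1 and cKit, and hold the stem cells and multipotent progenitors of the blood. The labels give 3 mice per group, and the table holds DIC 1, 2 and 3 and control 1, 2 and 4. Which antibodies removed the mature lineages is not stated in the labels. No label says that each library is 1 mouse, so p-values measure the spread between libraries, which may be technical.

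An antibody is built from heavy and light chains, and a light chain is either kappa or lambda. In a developing B cell, recombination joins 1 of many variable (V) segments to a joining (J) segment, and the joined exon is spliced to a constant region, Igkc for kappa or an Iglc gene for lambda. Most B cells carry a single productive light chain, so a population of many B cells uses many segments and a few expanded cells use few. Plasma cells, which secrete antibody, hold far more light chain RNA than resting B cells, and pre-B cells use a surrogate light chain made of Vpreb1 and Igll1 before they rearrange a light chain. Unrearranged V segments can also be transcribed, and a value for a V segment does not tell rearranged from unrearranged RNA.

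The germline coding sequences of 5 segments are shown because the results turn on them. Igkv14-126 led 5 of the 6 libraries and Iglv1 the other one. Igkv15-103 was second in DIC 3 and control 2, Igkv19-93 was high in DIC 1 and at 0 in a pair of controls, and Igkv9-120 was the segment that passed the test. Each is the last 300 bases of the coding part of the GENCODE M21 transcript model (build GRCm38), 5′ to 3′ on the sense strand, without most of the leader peptide. Capitals run from the codon of the conserved cysteine to the end, the germline part of the CDR3 loop that recombination to a J segment completes.
Igkv14-126: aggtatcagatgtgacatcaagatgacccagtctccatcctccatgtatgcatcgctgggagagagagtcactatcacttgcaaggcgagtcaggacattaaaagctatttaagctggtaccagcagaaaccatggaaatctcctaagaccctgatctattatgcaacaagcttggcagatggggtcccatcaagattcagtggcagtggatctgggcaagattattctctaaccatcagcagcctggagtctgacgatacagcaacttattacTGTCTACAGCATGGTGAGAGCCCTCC
Igkv15-103: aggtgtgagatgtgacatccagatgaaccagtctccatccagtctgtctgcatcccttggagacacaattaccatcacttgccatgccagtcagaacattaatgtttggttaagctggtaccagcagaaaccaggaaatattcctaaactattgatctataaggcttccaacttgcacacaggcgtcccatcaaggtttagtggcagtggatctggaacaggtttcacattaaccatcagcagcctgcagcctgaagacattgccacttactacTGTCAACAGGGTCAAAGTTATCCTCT
Igkv19-93: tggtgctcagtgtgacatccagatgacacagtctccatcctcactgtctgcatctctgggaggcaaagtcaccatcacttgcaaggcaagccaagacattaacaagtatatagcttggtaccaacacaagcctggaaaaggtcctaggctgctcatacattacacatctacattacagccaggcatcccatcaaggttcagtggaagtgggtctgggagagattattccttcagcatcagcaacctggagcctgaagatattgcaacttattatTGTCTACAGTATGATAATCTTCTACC
Igkv9-120: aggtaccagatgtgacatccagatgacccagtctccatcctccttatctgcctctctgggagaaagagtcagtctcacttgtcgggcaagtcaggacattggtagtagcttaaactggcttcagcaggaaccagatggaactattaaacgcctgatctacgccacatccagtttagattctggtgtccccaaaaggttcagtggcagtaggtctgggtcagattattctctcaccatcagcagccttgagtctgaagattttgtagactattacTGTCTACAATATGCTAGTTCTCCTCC
Iglv1: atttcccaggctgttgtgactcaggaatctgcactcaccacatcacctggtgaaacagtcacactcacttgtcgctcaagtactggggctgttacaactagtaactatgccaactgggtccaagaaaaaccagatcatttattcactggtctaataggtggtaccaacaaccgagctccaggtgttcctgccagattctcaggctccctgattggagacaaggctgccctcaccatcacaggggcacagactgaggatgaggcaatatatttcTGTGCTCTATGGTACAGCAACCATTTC
The coding models of all 103 variable genes are 338 to 371 bases long, and 100 of them carry a tyrosine or phenylalanine codon followed by a cysteine codon within their last 15 codons. Many segments are close copies. Among the 44 segments with enough signal to be tested, the identity to the most similar other member ranged from 73.9% to 98.3% with a median of 95.3%, and for 36 of them it was at least 90%. Igkv15-103 and Igkv19-93 had no close copy, with 80.5% and 79.3% to their nearest. Igkv9-120 shares 95.2% with Igkv9-124, and Iglv1 shares 96.9% with Iglv2. Since the labels do not say how reads were divided between such copies, single values of close copies are uncertain.

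Light chain V segments took a small part of the RNA in every library, and the libraries of 1 group differed from each other widely. Values are in TPM, a measure of transcript abundance per length that is scaled to the same total in each library and keeps no sequencing depth, so the reads behind each value are unknown. The summed TPM over all members was 1576 in DIC 1, 391.8 in DIC 2 and 630.3 in DIC 3, against 104 in control 1, 510.3 in control 2 and 111 in control 4. DIC 1 stood highest, control 2 lay between DIC 2 and DIC 3, and controls 1 and 4 were the lowest, so the groups overlap. The mean over 3 libraries ± SD was 866 ± 626 TPM in DIC and 242 ± 233 TPM in control, a ratio of 3.58. Without DIC 1 the DIC mean was 511 TPM, and without control 2 the control mean was 107 TPM. In bulk RNA, more cells of a type and more RNA per cell cannot be told apart.

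A total of 96 of the 163 members lay above 0 TPM in at least 1 library, 93 of the 103 variable genes and 3 of the 60 pseudogenes, while 67 were listed at 0 throughout. Above 0 were 84 segments in DIC 1, 37 in DIC 2 and 69 in DIC 3, against 25 in control 1, 52 in control 2 and 24 in control 4. The order of the libraries was nearly that of the summed TPM, and the groups again overlap, with DIC 2 below control 2. A DIC library had 63.3 ± 24.0 on average and a control 33.7 ± 15.9 (mean ± SD, n = 3). At 1 TPM or more, the numbers were 74, 30 and 57 in DIC 1, 2 and 3, against 16, 41 and 16 in control 1, 2 and 4. At 10 TPM or more, they were 39, 10 and 16 in DIC 1, 2 and 3, against 4, 14 and 3 in control 1, 2 and 4. For comparison, 21522 to 22720 genes of all kinds lay above 0 in the DIC libraries and 20474 to 21449 in the controls.

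**Figure D1:**
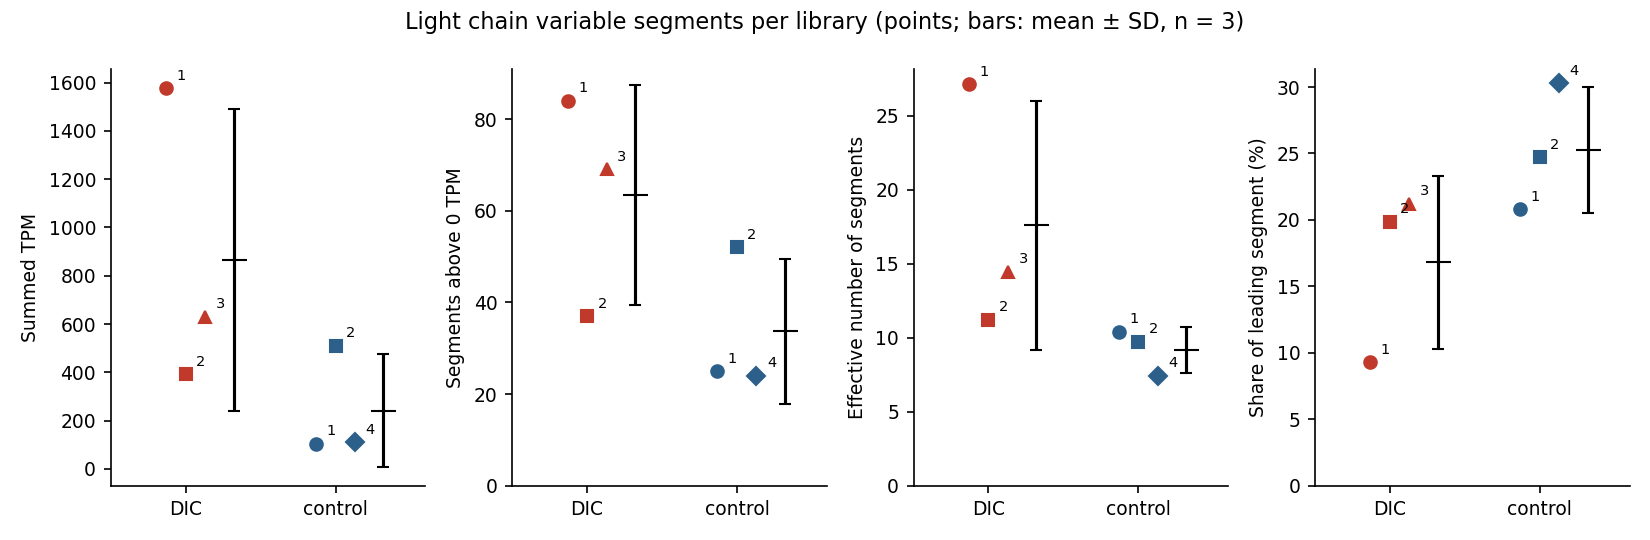
Summed TPM, number of segments above 0 TPM, effective number of segments and share of the leading segment in percent, for each library (points, numbered as in the table), with the mean ± SD of 3 libraries per group (bars). DIC 1 has 1576 TPM and 84 segments, and control 2 lies at 510.3 TPM and 52 segments, above DIC 2 in both.

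A single segment did not make up most of the signal in any library. Igkv14-126 led with 147 TPM in DIC 1, 77.9 TPM in DIC 2 and 134 TPM in DIC 3, against 21.6 TPM in control 1 and 126 TPM in control 2. In control 4 the leader was Iglv1 at 33.5 TPM. The leading segment held 9.31%, 19.9% and 21.2% of the summed TPM in DIC 1, 2 and 3, against 20.8%, 24.7% and 30.3% in control 1, 2 and 4. These ranges overlap, as DIC 3 lay above control 1. The top 3 segments together held 22.9%, 40.1% and 34.3% in DIC 1, 2 and 3, against 42.9%, 46.1% and 50.6% in control 1, 2 and 4. On that measure every control lay above every DIC library, and an exact permutation test of 3 against 3 libraries cannot give a p below 0.1. For kappa segments alone the top 3 overlapped, with 24.6% to 44.7% in DIC and 40.7% to 48.2% in control. The top 5 of all segments overlapped too, with 35.1% to 57.9% in DIC and 54.8% to 65.4% in control, as did the top 10.

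The effective number of segments, the number of equally used segments that would give the same concentration (the inverse of the summed squared shares), was 27.1, 11.2 and 14.5 in DIC 1, 2 and 3, against 10.4, 9.73 and 7.43 in control 1, 2 and 4. Its mean ± SD over 3 libraries was 17.6 ± 8.41 in DIC and 9.18 ± 1.56 in control, and the groups did not overlap. For kappa segments alone they did, with 26.4, 9.97 and 12.8 in DIC 1, 2 and 3, against 9.35, 9.06 and 11.02 in control 1, 2 and 4. DIC 1 stood apart from the other 5 libraries, and control 4 was the lowest with lambda segments included but not without them. Reaching 90% of the summed TPM took 41, 17 and 32 segments in DIC 1, 2 and 3, against 14, 24 and 13 in control 1, 2 and 4. The curves of cumulative share show DIC 1 and DIC 3 climbing most slowly and control 2 between DIC 3 and DIC 2 at its upper end.

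**Figure D2:**
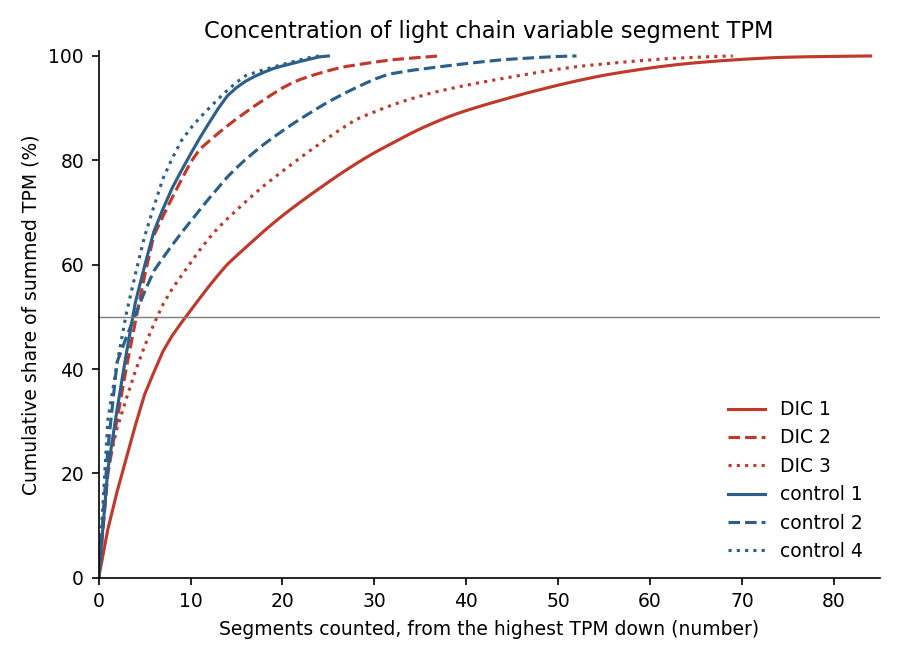
Cumulative share of the summed TPM (percent) against the number of segments, counted from the highest TPM down, for each of the 6 libraries. The horizontal line marks 50%, which took 10, 5 and 7 segments in DIC 1, 2 and 3, against 4, 4 and 3 in control 1, 2 and 4.

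Of the segments above 0 anywhere, 91 were seen in a DIC library and 65 in a control. In DIC and in no control were 31 of the 96, beside 13.5% of all 28869 genes above 0 in the table. The reverse held for 5 segments, Igkv3-11, Igkv4-92, Igkv1-35, Igkv11-125 and Igkv6-29, beside 8.14% of all genes; these were named after their values were seen. Above 0 in all 3 DIC libraries and in no control were Igkv4-91, Igkv14-100 and Igkv4-79, 3 of the 96, beside 0.613% of all genes. No segment was above 0 in every control and absent from DIC, beside 0.18% of all genes. The DIC mean was above the control mean for 86 of the 96, beside 48.3% of all genes.

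Only 8 segments lay above 0 in all 6 libraries, namely Igkv14-126, Iglv1, Igkv3-12, Igkv3-2, Igkv3-1, Igkv14-111, Igkv3-5 and Igkv1-135. At the other end, 24 segments lay above 0 in a single library, 14 of them in DIC 1, beside 16.8% of all genes seen in 1 library alone. All 25 segments of control 1 were also above 0 in DIC 1. DIC 1 and DIC 3 shared 65 segments, 77.4% of those in DIC 1 and 94.2% of those in DIC 3. Control 1 and control 4 shared 10, which is 40% of those in control 1 and 41.7% of those in control 4. DIC 2, with 37 segments, shared 19 with control 1 (76% of those in control 1) and 12 with control 4 (50% of those in control 4). Controls 1 and 4, with the fewest segments, therefore did not hold the same set above 0. With depth unknown, a value of 0 does not show that a segment was absent.

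The comparison between groups was made gene by gene with limma on log2(TPM + 1), over the 13496 genes that reached 1 TPM in 3 or more of the libraries, and p-values were adjusted over all of them. Of the 163 members 44 passed this filter, 52 were above 0 but below it, and 67 were at 0. One member passed the adjusted threshold of 0.05 and was higher in DIC, beside 0.037% of all tested genes, and 0 were lower, beside 0.0222%. By unadjusted p under 0.05, 14 members were higher, beside 6.43%, and 0 were lower, beside 13.8%. The log2 difference was above 0 in 42 of the 44 members, beside 41.5% of all tested genes, with a median of 1.49 over the members and -0.08 over all tested genes. These counts are descriptions. Igkv9-120, Igkv8-30, Iglv2 and Igkv4-91, 4 of the 44, passed the filter through the 3 DIC libraries alone, and 0 passed through the 3 controls alone, so these 4 could enter the test only with DIC above control. The members also do not vary independently: DIC 1 was the highest library for 35 of the 44, beside 18.2% of all tested genes.

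Igkv9-120, a kappa segment, was the one that passed. It had 14.9, 14.5 and 7.83 TPM in DIC 1, 2 and 3, against 0, 0.56 and 0 TPM in control 1, 2 and 4. All 3 DIC libraries lay far above every control. The log2 difference was 3.48 ± 0.32 (moderated SE), with an adjusted p of 0.0206 by limma. Since Igkv9-120 entered the test through its DIC libraries alone, its direction and lack of overlap were set by the filter, and without a filter 0 members passed. Its close copy Igkv9-124 did not share the pattern, with 7.04, 0 and 1.04 TPM in DIC 1, 2 and 3, against 0, 1.12 and 2.62 TPM in control 1, 2 and 4. Over the alternative settings the adjusted p of Igkv9-120 by limma ranged from 0.00856 to 0.160. The call was lost with a pseudocount of 0.1, without a filter, and without control 1 (0.142) or control 4 (0.154). It was also lost with a replicate block, where only the libraries numbered 1 and 2 informed the group difference. Igkv9-120 was not tested when a DIC library was left out, because it then fell under the filter.

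Igkv8-30, which also entered the test through its DIC libraries alone, had the next lowest adjusted p. It had 39.1, 9.93 and 15.4 TPM in DIC 1, 2 and 3, against 0.51, 0 and 0 TPM in control 1, 2 and 4. Controls were at or near 0, with a log2 difference of 4.07 ± 0.47 and an adjusted p of 0.0546 by limma. Igkv4-91 had 21.5, 1.07 and 4.52 TPM in DIC 1, 2 and 3 and was listed at 0 in all 3 controls, so no fold is given. It too was tested through its DIC libraries alone, and its adjusted p was 0.212. Groups that did not overlap were found for 10 of the 44 tested members, all higher in DIC, beside 7.08% of all tested genes, and for 0 in the other direction, beside 18.4%. Of those 10, the 4 that passed the filter through DIC alone could not have overlapped.

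Among the abundant kappa segments, Igkv14-126 is known from antibodies of mouse B-1 cells that bind phosphatidylcholine, where it pairs with the heavy chain segment Ighv11-2. Igkv14-126 reached 147 TPM in DIC 1, the highest library, against 10.6 TPM in control 4, the lowest. Because control 2 lay above DIC 2, the groups overlap, and the log2 difference was 1.85 ± 0.80 with an adjusted p of 0.253 by limma. Ighv11-2 had 44.7, 24.2 and 34.2 TPM in DIC 1, 2 and 3, against 3.51, 26.9 and 0.95 TPM in control 1, 2 and 4. It too was low in controls 1 and 4 and overlapped through control 2. Its log2 difference was 2.46 ± 0.88, with an adjusted p of 0.216 by limma. Ighv7-1, another heavy chain segment, had 85.1, 21.2 and 35.4 TPM in DIC 1, 2 and 3. In control 1, 2 and 4 it had 9.59, 59.9 and 0.60 TPM. The pattern over libraries was therefore not particular to Igkv14-126 and Ighv11-2. Whether RNA of Igkv14-126 and Ighv11-2 came from the same cells was not tested.

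Igkv15-103 had 100.6, 30.2 and 46.8 TPM in DIC 1, 2 and 3, against 6.82, 84.8 and 0 TPM in control 1, 2 and 4. Control 2 was second only to DIC 1, and the adjusted p was 0.341 by limma. Igkv19-93 had 113, 41.0 and 14.1 TPM in DIC 1, 2 and 3, against 0, 11.1 and 0 TPM in control 1, 2 and 4. Here the groups did not overlap, although DIC 3 and control 2 were close. Its log2 difference was 4.18 ± 1.10 with an adjusted p of 0.212.

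The family 3 segments Igkv3-12, Igkv3-2, Igkv3-1 and Igkv3-5 were all seen in every library. Igkv3-12 had 92.6, 38.3 and 30.0 TPM in DIC 1, 2 and 3, against 11.1, 24.2 and 5.98 TPM in control 1, 2 and 4. Igkv3-1 had 36.7, 13.1 and 15.9 TPM in DIC 1, 2 and 3, against 2.88, 11.2 and 1.96 TPM in control 1, 2 and 4. For both, every DIC library was above every control, with control 2 just below the lowest DIC library. The log2 differences were 1.91 ± 0.55 for Igkv3-12 and 2.00 ± 0.59 for Igkv3-1, each with an adjusted p of 0.212 by limma. Igkv3-2 ranged from 5.47 to 63.9 TPM in DIC and from 0.73 to 10.5 TPM in control, and its groups overlapped. Igkv3-5 ranged from 4.92 to 34.2 TPM in DIC and from 0.19 to 20.2 TPM in control, also with overlap.

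The remaining kappa segments named by their abundance followed different libraries. Igkv14-111, whose identity to Igkv14-126 is 91.5%, had 32.1, 13.4 and 12.7 TPM in DIC 1, 2 and 3, against 4.53, 11.9 and 0.32 TPM in control 1, 2 and 4, without overlap. Igkv6-23 had 66.5 TPM in DIC 1, with 5.92 and 6.97 TPM in the other DIC libraries and 0 to 9.04 TPM in the controls, so that DIC 1 alone was high. Igkv6-15 was high in DIC 1 and control 2, with 47.2, 0.59 and 10.9 TPM in DIC 1, 2 and 3, against 0, 22.2 and 0 TPM in control 1, 2 and 4. Igkv1-117 had no direction that held, with 25.2, 0 and 24.1 TPM in DIC 1, 2 and 3, against 3.20, 12.98 and 11.9 TPM in control 1, 2 and 4. Its log2 difference of -0.07 ± 1.25 turned to 1.49 when DIC 2 was left out. Adjusted p over these 4 ranged from 0.227 to 0.981 by limma.

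**Figure D3:**
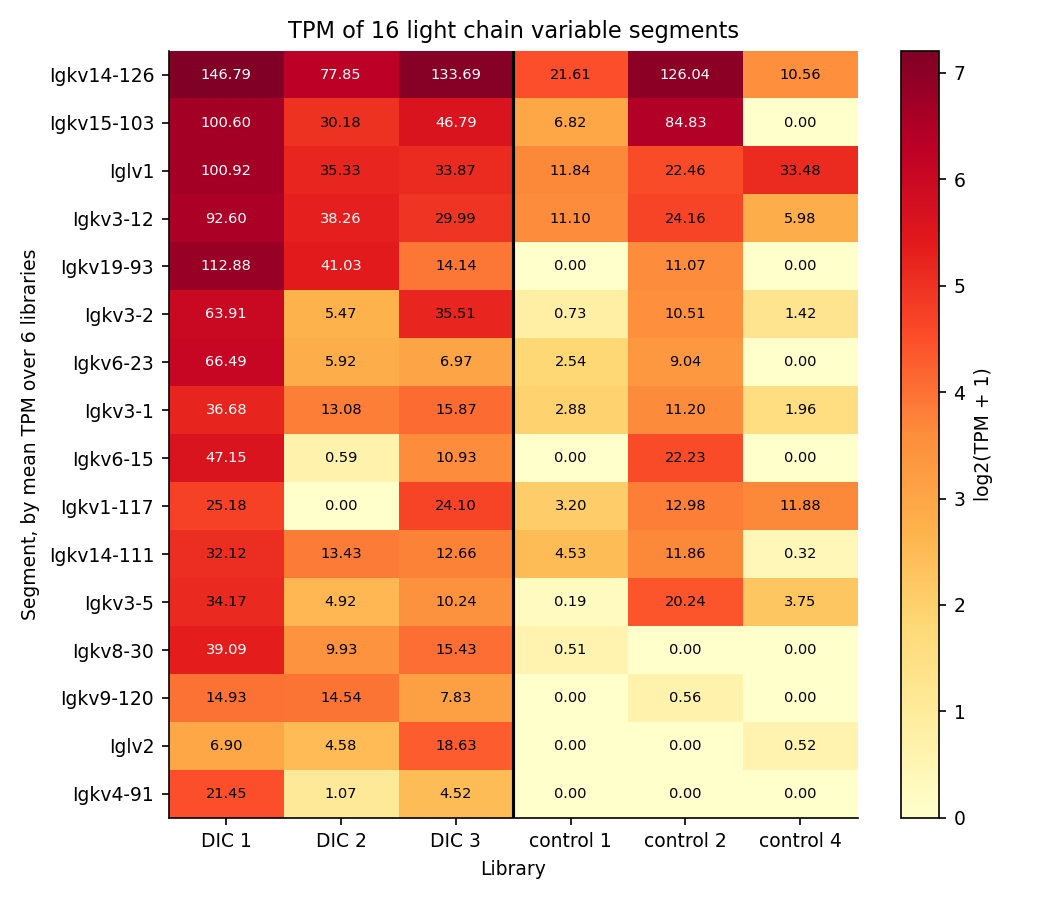
TPM of the 16 named segments in each library, printed in each cell, with colour on the log2(TPM + 1) scale, DIC libraries left of the line and controls right of it. Igkv9-120, Igkv8-30 and Igkv4-91 are at 0.56 TPM or below in all controls, whereas Igkv14-126 and Igkv15-103 are high in control 2 as well.

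Kappa segments fall into 20 families by sequence. Family 14, led by Igkv14-126, held 12.8%, 26.1% and 26.1% of the kappa TPM in DIC 1, 2 and 3, against 28.5%, 28.3% and 14.3% in control 1, 2 and 4. Family 3 held 18.9%, 18.4% and 16.5% in DIC 1, 2 and 3, against 20.04%, 15.8% and 32.8% in control 1, 2 and 4. Each held at least 12.8% of the kappa TPM in all 6 libraries; DIC 1 and control 4 were low for family 14, and control 4 was high for family 3. Family 4 is the largest by number, with 26 variable genes among its 33 members. It had 20, 7 and 15 segments above 0 in DIC 1, 2 and 3, against 3, 10 and 1 in control 1, 2 and 4. Its share was 11.04%, 3.35% and 5.41% of the kappa TPM in DIC 1, 2 and 3, against 4.97%, 5.49% and 0.855% in control 1, 2 and 4. Families 18 and 20, with 1 member each, were at 0 in every library.

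Along chromosome 6 the second number of a kappa name counts outward from the side of Igkc, and segments lie in both orientations. Segments in the same orientation as Igkc recombine by deletion of the DNA between them, and segments in the opposite orientation by inversion. Opposite segments held 46.5%, 34.6% and 32.1% of the kappa TPM in DIC 1, 2 and 3, against 26.3%, 26.5% and 21.7% in control 1, 2 and 4. Each DIC library was above each control, with DIC 1 well above the other two; the difference was not tested. The 53 segments nearest to Igkc held 35.5% to 45.0% in DIC and 34.9% to 47.6% in control, and the 54 farthest from it 43.4% to 58.7% in DIC and 44.2% to 57.9% in control. The 53 between them held 5.78% to 11.6% in DIC and 0% to 8.20% in control. Each of these ranges overlaps between groups, with little RNA from the middle in any library.

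**Figure D4:**
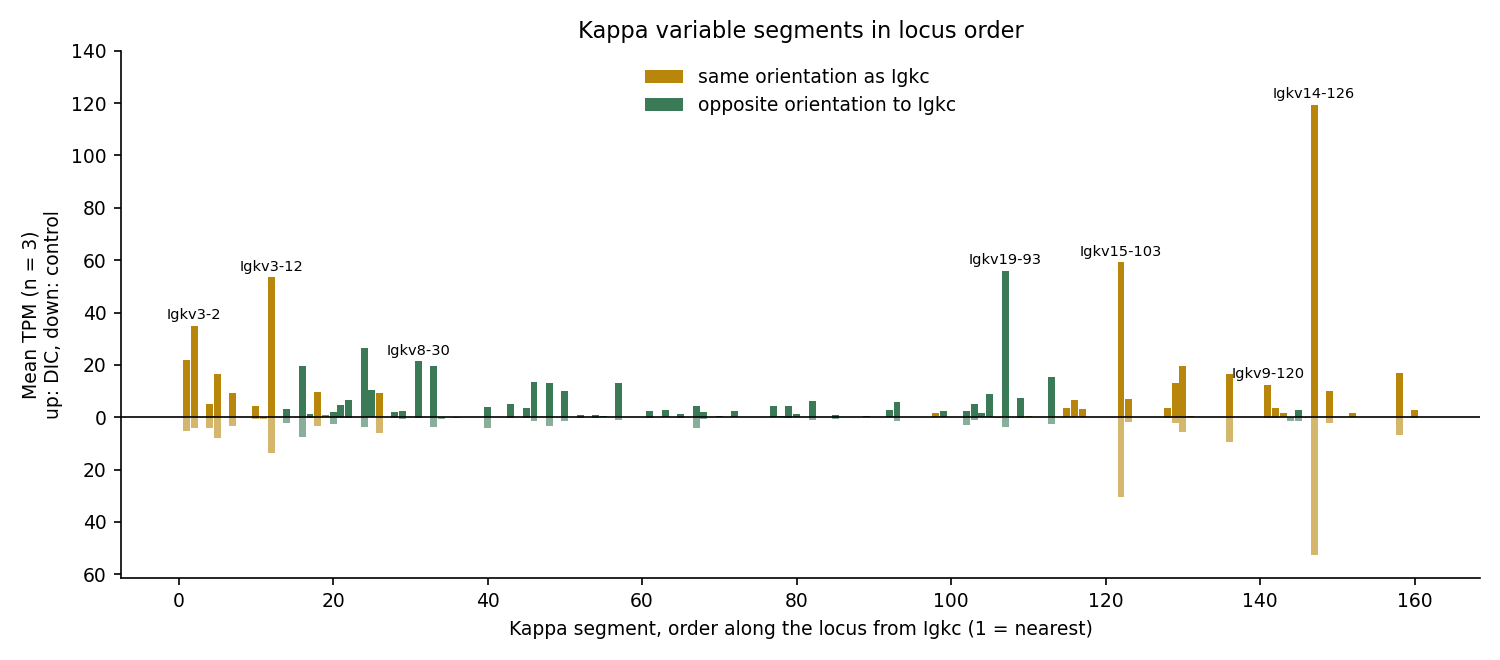
Mean TPM of each kappa segment (n = 3 libraries), DIC upward and control downward, by its order along the locus from Igkc, coloured by orientation relative to Igkc. Igkv14-126 is the tallest in both groups, and the middle of the locus is low in both.

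The lambda locus holds 3 variable segments in these data, and Iglv1 was the highest of them in every library. Iglv1 had 100.9, 35.3 and 33.9 TPM in DIC 1, 2 and 3, against 11.8, 22.5 and 33.5 TPM in control 1, 2 and 4. DIC 1 stood high and control 4 reached almost the level of DIC 3, so the groups were separated by a narrow margin. The log2 difference was 1.21 ± 0.50 with an adjusted p of 0.240 by limma. Iglv2 had 6.90, 4.58 and 18.6 TPM in DIC 1, 2 and 3, against 0, 0 and 0.52 TPM in control 1, 2 and 4. Iglv2 passed the filter through its DIC libraries alone, and the log2 difference was 3.05 ± 0.47 with an adjusted p of 0.212. Iglv3 stayed between 0 and 2.23 TPM in DIC and between 0 and 0.52 TPM in control. Lambda made up 6.98%, 10.2% and 8.47% of the V segment TPM in DIC 1, 2 and 3, against 11.9%, 4.401% and 31.2% in control 1, 2 and 4.

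The kappa constant region followed the kappa V segments from library to library, and the lambda genes did so less closely. Igkc had 631, 165 and 292 TPM in DIC 1, 2 and 3, against 45.1, 234 and 25.3 TPM in control 1, 2 and 4. Libraries ranked almost as they did for the summed V segments, with control 2 above DIC 2, and the log2 difference was 2.25 ± 0.83 with an adjusted p of 0.219 by limma. The ratio of summed kappa V TPM to Igkc TPM was 2.32, 2.13 and 1.98 in DIC 1, 2 and 3, against 2.03, 2.09 and 3.01 in control 1, 2 and 4. This ratio therefore stayed within a narrow range while the sums themselves spanned more than an order of magnitude. Both quantities come from the same libraries, so they share whatever differs between them. Iglc2, a lambda constant gene, had 83.5, 4.50 and 21.8 TPM in DIC 1, 2 and 3, against 1.41, 5.99 and 4.37 TPM in control 1, 2 and 4. DIC 2 was within the range of the controls there, and the adjusted p was 0.235. The ratio of summed lambda V TPM to the summed TPM of Iglc1, Iglc2 and Iglc3 was 1.02, 4.97 and 1.62 in DIC 1, 2 and 3, against 1.80, 3.29 and 2.56 in control 1, 2 and 4, a wider spread than for kappa. All kappa and lambda J segments and Iglc4, 11 of the 15 constant and joining genes, were listed at 0 everywhere. The other 4 all had log2 differences above 0, beside 41.5% of all tested genes, without passing the test. The zeros of the J segments do not show that joined RNA was absent, since the labels do not say how reads were assigned.

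Heavy chain V segments, 185 genes, varied in the same way. Their summed TPM was 837, 167 and 350.2 in DIC 1, 2 and 3, against 69.5, 259 and 103 in control 1, 2 and 4. Of the 54 that were tested 52 had a log2 difference above 0, beside 41.5% of all tested genes. By limma 0 passed the adjusted threshold, while 16 were higher by unadjusted p under 0.05, beside 6.43%. Their effective number was 32.7, 16.3 and 28.2 in DIC 1, 2 and 3, against 14.0, 12.3 and 23.1 in control 1, 2 and 4. These ranges overlap, as they did for kappa segments alone.

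Other genes of antibody-making cells gave mixed values. Jchain, which links IgM and IgA subunits, had 132, 26.9 and 55.2 TPM in DIC 1, 2 and 3, against 3.39, 30.5 and 6.68 TPM in control 1, 2 and 4. It ranked the libraries much like the V segments, with a log2 difference of 2.54 ± 0.81 and an adjusted p of 0.212 by limma. Igha, the IgA heavy chain, had 139, 1.48 and 35.3 TPM in DIC 1, 2 and 3, against 6.54, 6.56 and 7.03 TPM in control 1, 2 and 4, so DIC 2 was the lowest of all. Ighm, the IgM heavy chain, had overlapping values. Its means were 315 ± 67.6 TPM in DIC and 314 ± 38.4 TPM in control (mean ± SD, n = 3). Of 8 heavy chain constant genes 4 were tested and 0 passed the adjusted threshold. Log2 differences were above 0 for 3 and below 0 for 1, Ighm, beside 41.5% of all tested genes above 0. Ighg2c, which was not tested, had 56.5, 0 and 18.3 TPM in DIC 1, 2 and 3. In control 1, 2 and 4 it had 0, 0.94 and 0 TPM. Of 11 plasma cell genes 8 were tested, none passed the adjusted threshold, and Jchain alone had a log2 difference above 0, beside 41.5% of all tested genes. The summed TPM of that list was 263 to 357 in DIC and 299 to 308 in control, and it rested mainly on Xbp1, a regulator of secretory cells, with 178 to 186 TPM in DIC and 201 to 202 TPM in control. The plasma cell factor Prdm1 lay between 0.06 and 0.16 TPM in DIC and between 0.16 and 0.55 TPM in control. None of the 11 was at 0 in every library, and their part in the V segment values was not tested.

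Genes of B cell precursors had lower means in DIC, though none passed the adjusted threshold. All 12 tested of 14 had log2 differences below 0, whereas 41.5% of all tested genes lay above 0. By limma 5 had an unadjusted p under 0.05, beside 13.8% of all tested genes that were lower by that measure. Their summed TPM was 157, 299 and 306 in DIC 1, 2 and 3, against 311, 401 and 673 in control 1, 2 and 4, without overlap. Igll1 of the surrogate light chain had 20.5, 59.4 and 55.6 TPM in DIC 1, 2 and 3, against 64.0, 79.9 and 158 TPM in control 1, 2 and 4. DIC 1, which had the most V segment RNA, was lowest, and control 4 was highest; the adjusted p was 0.235 by limma. Vpreb1, its partner, gave the same order at the extremes, with 13.3 TPM in DIC 1 and 118 TPM in control 4. Of 12 genes of mature B cells 7 were tested, 4 with log2 differences above 0 and 3 below, beside 41.5% of all tested genes above 0. Their summed TPM was 39.4, 11.8 and 17.4 in DIC 1, 2 and 3, against 9.63, 14.9 and 16.3 in control 1, 2 and 4. Ms4a1, which encodes CD20, was low throughout, with 2.81, 0.25 and 1.04 TPM in DIC 1, 2 and 3, against 0.18, 0.41 and 0.20 TPM in control 1, 2 and 4.

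**Figure D5:**
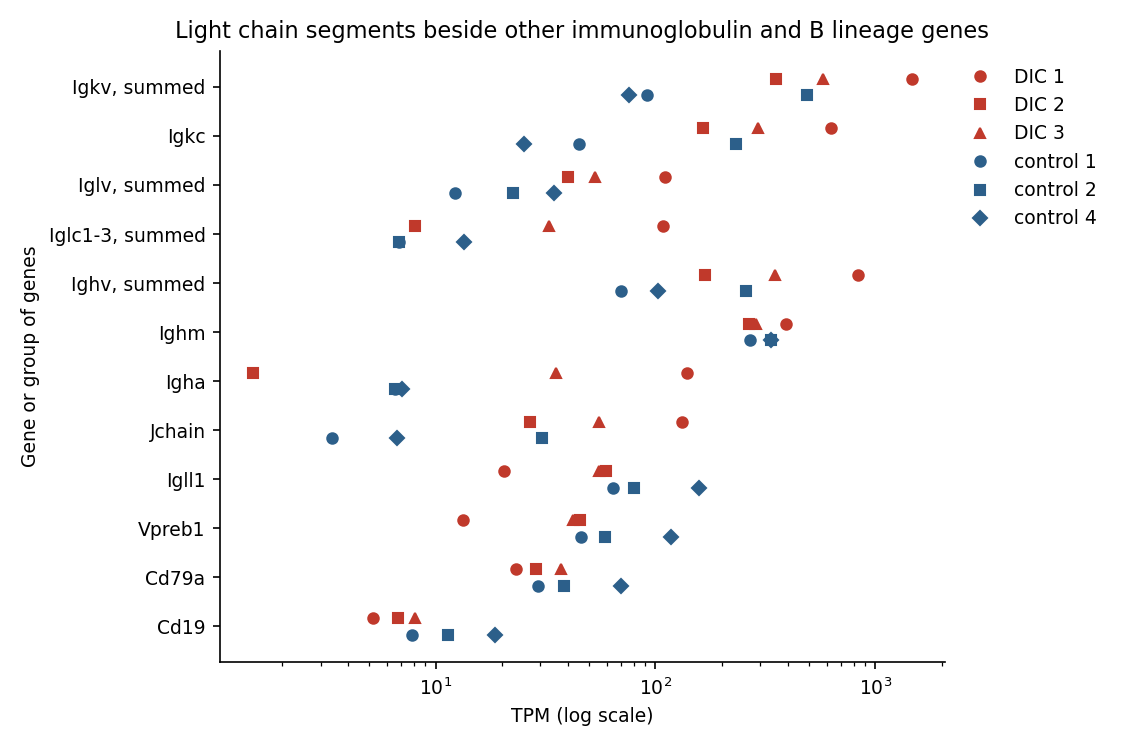
TPM on a log axis of summed V segments, constant regions and B lineage genes in each library, DIC markers above control markers in each line. Summed Igkv, Igkc and Jchain are highest in DIC 1 and low in controls 1 and 4, while Igll1 and Vpreb1 are lowest in DIC 1 and highest in control 4.

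Markers of neutrophils, a lineage that the sort should leave out, were abundant as a sum in every library and high in the same libraries as the V segments. All 12 listed neutrophil markers had log2 differences above 0, beside 41.5% of all tested genes. Together they took 22.4%, 15.3% and 18.8% of all TPM in DIC 1, 2 and 3, against 4.16%, 12.4% and 2.97% in control 1, 2 and 4. S100a8 and S100a9 made up most of that sum in every library. Mmp8, Cxcr2 and Retnlg were lower in DIC 2 than in control 2, and Cxcr2 was at 2.28 TPM in control 1. For each of the other listed markers every DIC library lay above every control, beside 7.08% of all tested genes. Control 2 was the highest control for neutrophil markers as for V segments. With TPM rescaled to the total without these markers, summed V segment TPM averaged 1090.0 in DIC and 268 in control. This rescaling raised values most where the markers took the largest share, so it could only widen the difference between the groups. The part of the neutrophil markers in the V segment values was not tested. Of the genes used for the sort, Kit lay between 82.3 and 95.2 TPM in DIC and between 54.2 and 99.5 TPM in control. Ly6a, which encodes Sca1, lay between 15.5 and 23.75 TPM in DIC and between 19.65 and 49.9 TPM in control. In a list of 7 stem and progenitor surface markers that includes both, 6 were tested and 0 passed the adjusted threshold. Log2 differences were above 0 for 2 and below 0 for 4, beside 41.5% of all tested genes above 0. Of the 6 tested, Cd48 and Cd34 were lower in every DIC library than in every control, beside 18.4% of all tested genes.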

How the data were processed

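RNA from sorted LSK cells was prepared from 10 ng with a SMART-Seq v4 kit and sequenced as pairs of 150 bases, per the labels' protocols. The authors deposited TPM values for 6 libraries; the submitters' processing notes name fastp 0.19.5, HISAT2 2.1.0, StringTie 2.1.2 and GRCm39, and they name no annotation release. Symbols, biotypes, strands and sequences came from GENCODE M21 on GRCm38 by gene identifier (52081 of 56750 matched), so no coordinates are given. Control columns 1 and 4 could not be tied to single samples, only to their group.

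limma 3.58.1 in R 4.3.3 was fitted with a trend on log2(TPM + 1), group as the single term and Benjamini-Hochberg adjustment, after a filter of 1 TPM in 3 libraries; the fit was tested on simulated data. Differences are DIC minus control, and the scale understates changes of low genes. An exact 0 can be a failed estimate. Identity was computed by pairwise alignment with Biopython 1.88.

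The named members were those past the threshold, the leading 3 of each library, the 12 with the highest mean TPM and the 6 tested with the lowest p, 16 in all. Members and lists were chosen with earlier results of these data known. Alternatives changed the pseudocount, filter, scaling, trend, replicate block and libraries.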

Additional observations from a re-analysis of the deposited data

How the results depend on the processing

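The number of genes called was 8, and fell to 5 with a pseudocount of 0.1 and to 0 without a filter, where limma tested 28869 genes and 3241 had an unadjusted p under 0.05. Leaving out each library gave 0 to 1762 genes. The 1762 came without control 2, with 570 higher and 1192 lower in DIC, and the 0 without DIC 1 or without control 4. It was 17 without DIC 2, 5 without control 1 and 2 without DIC 3.

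The number of segments called was 1. It was 0 with a pseudocount of 0.1, without a filter and with a replicate block. In those settings limma gave 11 of 44, 12 of 96 and 12 of 44 segments an unadjusted p under 0.05, all higher in DIC. Of all tested genes, 2720 of 13496, 3241 of 28869 and 625 of 13496 had such a p, of which 860, 1153 and 284 were higher in DIC. With a pseudocount of 0.5 the number of segments called was 2 of 44, Igkv9-120 and Igkv8-30, beside 12 of 13496 genes. Leaving out each library gave 0 to 11. The 11, of 33 tested, came without control 2, beside 1762 of 13129 genes, 570 of them higher in DIC. These segments were Igkv9-120, Igkv14-126, Igkv8-30, Igkv19-93, Igkv3-1, Igkv1-88, Iglv2, Igkv3-12, Igkv15-103, Igkv14-111 and Igkv5-48, all higher in DIC. Of them, Igkv9-120, Igkv8-30, Igkv19-93, Igkv1-88, Iglv2 and Igkv5-48 were under 1 TPM in controls 1 and 4. They entered that fit through their DIC libraries alone, so their direction was set by the filter. Without each of the other 5 libraries the number of segments called was 0. The cause of these changes was not tested, except that fewer genes or libraries entered where they were left out. In the replicate block, only the libraries numbered 1 and 2 informed the group difference.

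The replicate block matched libraries by the numbers 1 and 2, and DIC 3 and control 4 each formed a block of their own. Its group difference therefore rested on DIC 1, DIC 2, control 1 and control 2 alone. Under this block, Igkv9-120 had an adjusted p of 0.076 by limma and 8 genes were called. The same-numbered libraries did not deviate together, with correlations of -0.0676 for number 1 and -0.102 for number 2, so the numbers are not taken as pairs. The crossed pairs DIC 1 with control 2 and DIC 2 with control 1 had 0.104 and 0.103.

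Igkv1-117 changed sign without DIC 2, control 2 or control 4, with log2 differences of -0.86 to 1.49 over the libraries left out, and at 0.058 with TPM rescaled without neutrophil genes, a setting chosen after seeing the data. Ighm changed sign to 0.25 with quantile normalization, 0.10 with the replicate block, 0.19 with that rescaling and without DIC 2, DIC 3, control 2 or control 4, over a range of -0.18 to 0.10 with each library left out. That rescaling moved the median log2 difference of all tested genes from -0.08 to 0.10. Of 388 values for 29 named genes under all settings, 11 changed sign, 12 gained and 5 lost a call, and 360 kept direction and call.

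The differences in number of segments, summed TPM and leading share moved by less than the spread between libraries under the other thresholds, member sets and scalings tried. With 3 libraries a group, leaving 1 out cannot move them by more than that spread, so it says nothing of stability. It gave differences of 19.3 to 42.8 segments, 269 to 862 TPM and -10.7 to -4.72 percentage points of leading share, and the summed difference was 269 TPM without DIC 1 beside 624 TPM with all libraries. Depth is unknown, so a segment at 0 is not shown to be absent.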
